A study of Bos taurus with 4 samples.

Results

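The 10 genes of collagen fibrils, type VI filaments and small proteoglycans described here, of 21861 genes in the count matrices, were followed through single nuclei of cattle fat. They were found by gene symbol, and each symbol matched 1 Ensembl gene in all 4 libraries: the type I collagen chains COL1A1 and COL1A2, the type III chain COL3A1, the type V chain COL5A2, the type VI chains COL6A1, COL6A2 and COL6A3, the fibril-associated collagen COL14A1, and the small leucine-rich proteoglycans decorin (DCN) and lumican (LUM). The tissue was subcutaneous backfat and intramuscular fat of 2 steers from a commercial feedlot. No treatment was given, all animals were managed alike, and diet, age and breed were not known to the submitters. Each animal gave 1 nuclear RNA library per depot, named here by depot and animal: subcutaneous 1, subcutaneous 2, intramuscular 1 and intramuscular 2. There were therefore 2 libraries per depot. The p-values rest on the spread between sums of these libraries, estimated with information pooled over all genes tested. They do not measure spread among animals beyond these 2.

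Fibrillar collagens are the load-bearing rods of connective tissue. Type I forms the bulk of thick fibrils, type III is mixed into finer and more pliable ones, and type V sits inside fibrils and limits their width. Type VI is assembled from 3 different chains into beaded filaments around cells, and in fat it forms part of the pericellular coat of adipocytes. Decorin and lumican bind the surface of fibrils and govern their spacing, and COL14A1 links fibrils to one another. In adipose tissue these genes are commonly taken as fibroblast genes, because the fibroblast-like progenitors from which adipocytes arise make much of the matrix.

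The libraries were unequal. After filtering they held 874, 6126, 1774 and 63 nuclei (subcutaneous 1 and 2, then intramuscular 1 and 2, the order used throughout), with 1138601, 4006966, 2717458 and 105481 unique molecular identifiers (UMIs, counted molecules). Skeletal muscle fibre markers went against the tissue labels. Subcutaneous 1 and 2 had 5.36% and 21.7% of their UMIs on these markers, whereas intramuscular 1 and 2 had 0.00239% and 0.00758%. Intramuscular 2 also stood apart by its small size and by a mitochondrial share of 0.0133%, against 1.24 to 1.65% in the others. At most 2 cell barcodes were shared by any pair of libraries. Nuclei were sorted into types by marker genes that include none of the 10 matrix genes, and "-like" in a name says that only those markers gave it. Progenitor-like nuclei (PDGFRA, PI16, DPP4 and others) numbered 120, 96, 262 and 1, adipocyte-like nuclei (ADIPOQ, PLIN1, LIPE and others) 146, 48, 658 and 44, and blood endothelial-like nuclei (PECAM1, CDH5, VWF and others) 155, 203, 244 and 1. Nuclei of 1 type in 1 library were summed where there were at least 10, which gave 18 sums: 3 each of progenitor-like, blood endothelial-like, pericyte/smooth muscle-like and macrophage-like, 4 of adipocyte-like and 2 of muscle fibre-like nuclei. Intramuscular 2 thus had an adipocyte-like sum only. Levels below are CPM, UMIs per 1000000 UMIs of such a sum.

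The 10 genes fell into distinct patterns once adipocyte-like nuclei were set beside progenitor-like nuclei. COL3A1 and COL5A2 were higher in adipocyte-like than in progenitor-like nuclei of subcutaneous 1 and intramuscular 1, and lower in subcutaneous 2. Against blood endothelial-like nuclei, 10 of 10 were higher in progenitor-like nuclei (edgeR quasi-likelihood test, Benjamini-Hochberg adjusted p under 0.05), where 7.65% of all 5424 genes tested were called higher. The median of the 10 log2 fold changes was 2.78, against -0.02 over all genes. Against adipocyte-like nuclei 7 of 10 were higher, where 8.39% of all genes were called higher and 8.89% lower, and none of the 10 was lower. The exceptions were COL3A1, COL5A2 and COL6A2. Against pericyte/smooth muscle-like nuclei 8 of 10 were higher (3.76% of all genes), and against macrophage-like and muscle fibre-like nuclei 10 of 10 (5.29% and 18.2% of all genes). These are ratios of RNA within a nucleus type, so a gene's level moves with the rest of the RNA in that type.

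**Figure D1:**
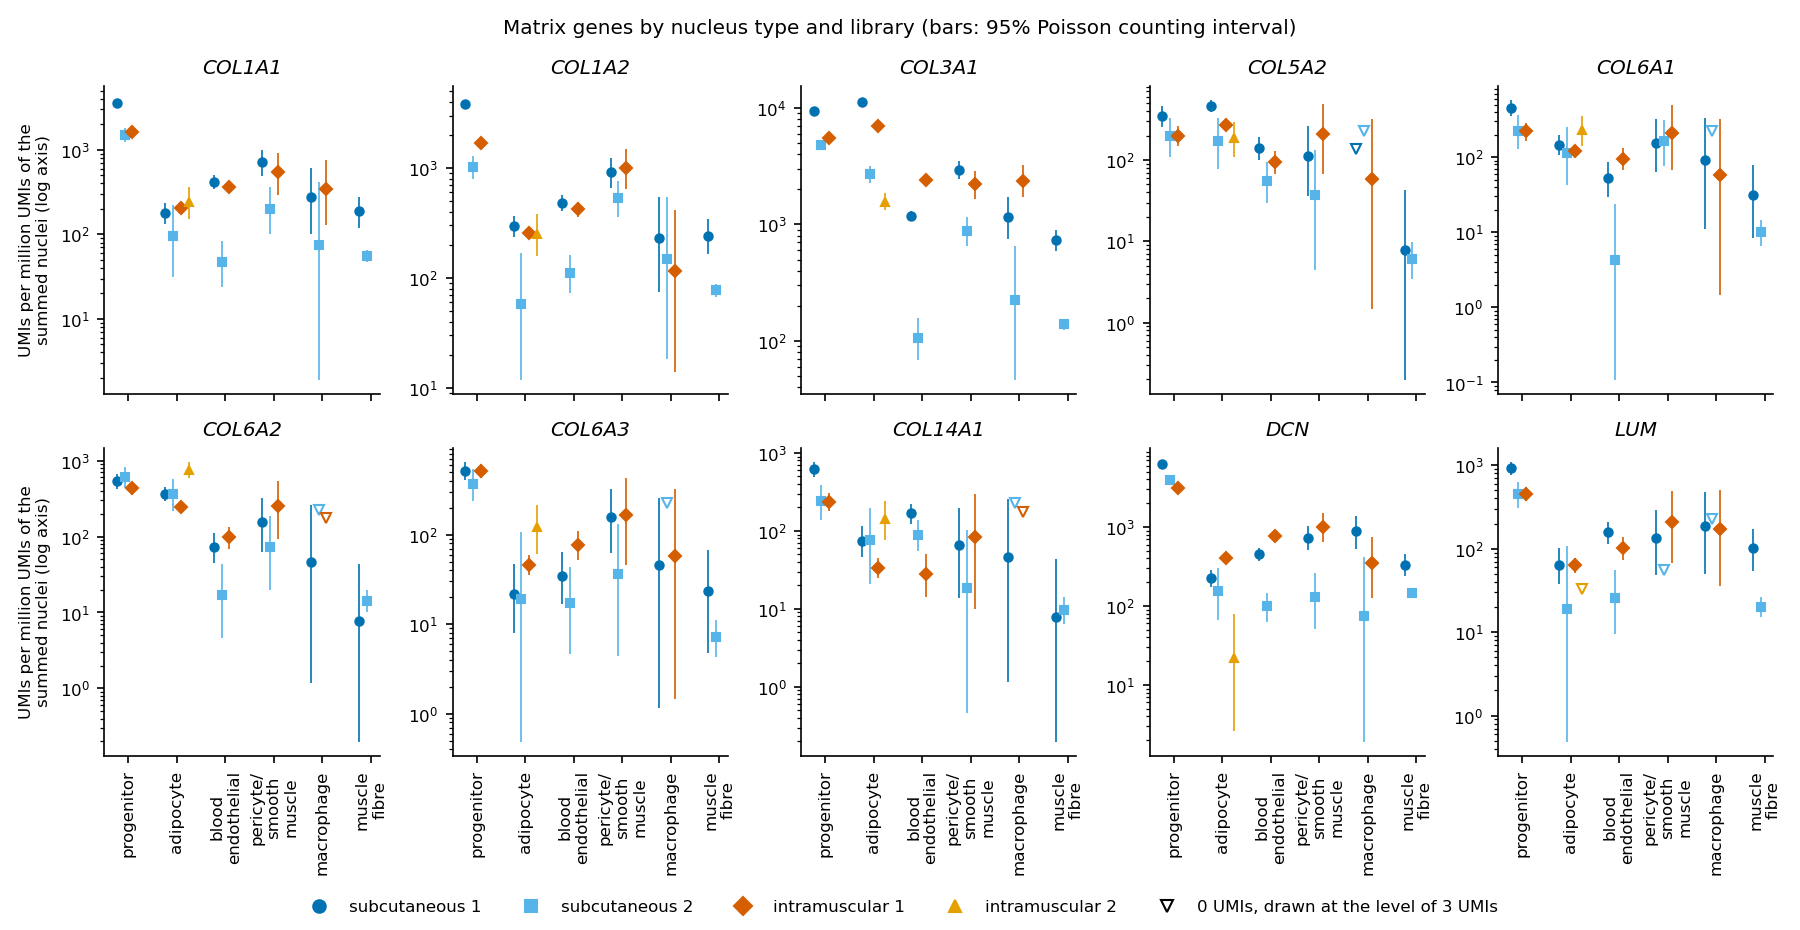
CPM (UMIs scaled to 1000000 per sum, log axis) of each of the 10 genes in sums of nuclei by type, 1 point per library, with 95% Poisson intervals for counting error only. COL3A1 and COL5A2 overlap between adipocyte-like and progenitor-like nuclei, COL6A2 is at 56.3 to 68.1% of its progenitor-like level in adipocyte-like nuclei of the same library, and COL1A1, COL6A3 and DCN are highest in progenitor-like nuclei.

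The type I chains showed the plain fibroblast pattern. COL1A1 reached 3564, 1509 and 1625 CPM in the 3 progenitor-like sums, against 179, 95.4, 204 and 241 in the 4 adipocyte-like sums and 416, 47.1 and 364 in the 3 blood endothelial-like sums. The progenitor-like sums lay above every other sum, with no overlap. COL1A1 had a log2 fold change of 3.83 (SE 0.46, adjusted p = 2.6e-10) against adipocyte-like nuclei and 3.11 (SE 0.43, adjusted p = 8.4e-09) against blood endothelial-like nuclei. COL1A2, whose product joins that of COL1A1 in the same triple helix, stood at 3822, 1015 and 1671 in progenitor-like and at 297, 57.2, 258 and 252 in adipocyte-like nuclei. Its log2 fold change against adipocyte-like nuclei was 3.29 (SE 0.44, adjusted p = 5.0e-09). The proportion of the 2 chains differed from that in progenitor-like nuclei beyond counting error in some sums. The counting intervals leave out the spread between nuclei. The COL1A2 to COL1A1 UMI ratio in adipocyte-like nuclei was 1.55 (95% counting interval 1.05 to 2.29), 0.892 (0.134 to 4.75) and 1.23 (0.995 to 1.52) times that in progenitor-like nuclei of the same library. In subcutaneous 2 it was 3.49 (1.55 to 8.35) times higher in blood endothelial-like and 3.89 (1.75 to 9.22) times higher in pericyte/smooth muscle-like nuclei, while the intervals of these types in the other 2 libraries include 1.

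COL3A1 did not follow type I. It stood at 9411, 4809 and 5512 CPM in progenitor-like nuclei and at 11290, 2709, 6988 and 1565 in adipocyte-like nuclei. In subcutaneous 1 and intramuscular 1 the adipocyte-like sum was the higher of the pair, in subcutaneous 2 the lower, and the groups overlapped. The log2 fold change was 0.22 (SE 0.47, 95% interval -0.71 to 1.14, adjusted p = 0.823), and without subcutaneous 2 it turned to -0.31. In blood endothelial-like nuclei COL3A1 was at 1184, 107 and 2386, below each progenitor-like sum (log2 fold change 2.89, SE 0.51, adjusted p = 6.4e-06). Median COL3A1 UMIs per nucleus were 14, 1, 11.5 and 2 in adipocyte-like nuclei and 7, 1 and 3 in progenitor-like nuclei. These counts are not scaled for depth. Median depth was 1644, 724.5, 1795.5 and 1064.5 UMIs in adipocyte-like and 852, 574 and 741 in progenitor-like nuclei.

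COL5A2, a type V chain, went with COL3A1. Its levels were 348, 197 and 200 in progenitor-like nuclei and 461, 172, 270 and 186 in adipocyte-like nuclei, which overlapped (log2 fold change -0.30, SE 0.38, 95% interval -1.05 to 0.45, adjusted p = 0.673). In blood endothelial-like nuclei it was at 140, 55.7 and 94.8. That difference was the smallest of the 10 (log2 fold change 1.203, SE 0.39, adjusted p = 0.0202), and it lost its call under 6 of the alternative settings, with adjusted p-values of 0.0047 to 0.191 over all of them. The ratio of COL3A1 to COL5A2 UMIs in adipocyte-like nuclei was 0.905 (0.635 to 1.27), 0.648 (0.255 to 1.74) and 0.941 (0.678 to 1.28) times that in progenitor-like nuclei, with intervals that include 1. In blood endothelial-like nuclei it was 0.314 (0.199 to 0.497), 0.080 (0.0309 to 0.206) and 0.913 (0.577 to 1.45) times the progenitor-like ratio, below 1 beyond counting error in both subcutaneous libraries. COL3A1 and COL5A2 are neighbours on chromosome 2 in the RefSeq gene table of the assembly ARS-UCD2.0.

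**Figure D2:**
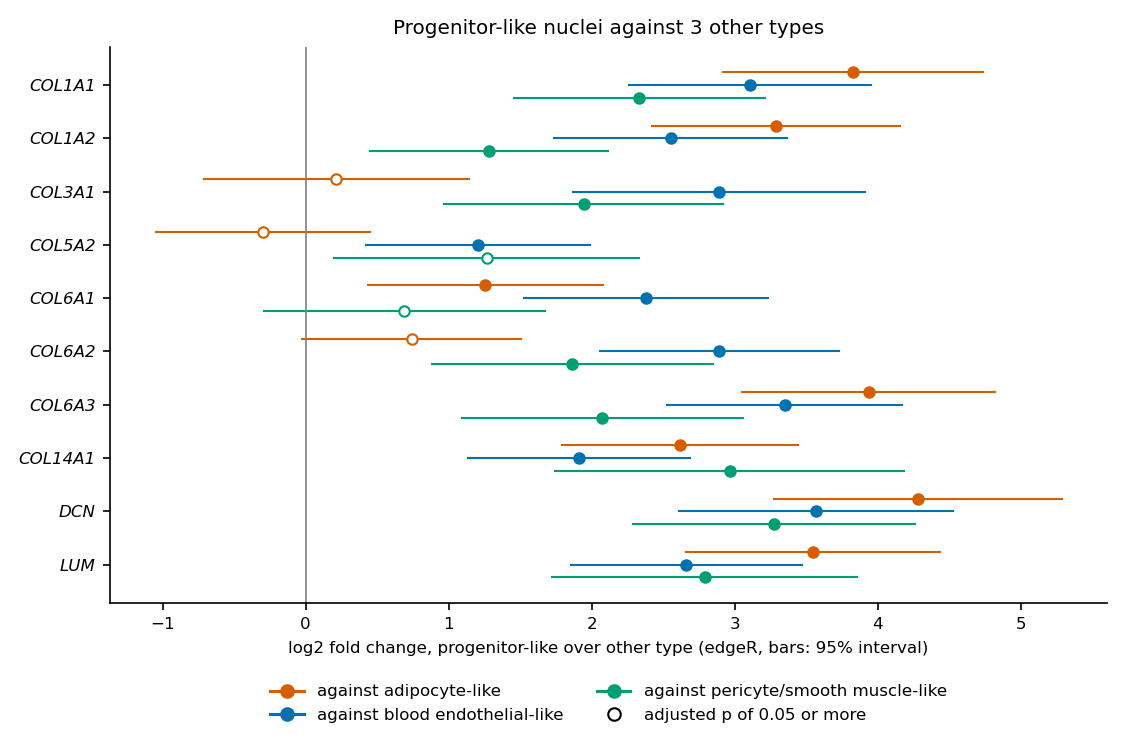
Log2 fold changes (x axis) of progenitor-like over adipocyte-like, blood endothelial-like and pericyte/smooth muscle-like nuclei for the 10 genes, with 95% intervals from edgeR. Filled points have an adjusted p under 0.05: the adipocyte-like intervals of COL3A1, COL5A2 and COL6A2 reach 0, at 0.22, -0.30 and 0.74, while COL6A3 stands at 3.94.

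Type VI split between its chains, which come together as a trimer of 3 different subunits. COL6A3, the large chain, was at 515, 367 and 512 in progenitor-like nuclei and at 21.5, 19.1, 46.3 and 120 in adipocyte-like nuclei, with no overlap (log2 fold change 3.94, SE 0.45, adjusted p = 4.7e-11). The adipocyte-like counts behind those levels were 6, 1, 66 and 11 UMIs. COL6A2 was at 536, 606 and 437 in progenitor-like and at 365, 362, 246 and 755 in adipocyte-like nuclei, with intramuscular 2 the highest of all 7 sums (log2 fold change 0.74, SE 0.39, 95% interval -0.02 to 1.51, adjusted p = 0.197). COL6A1 lay between, at 452, 226 and 221 against 147, 114, 121 and 230, where intramuscular 2 overlapped the progenitor-like sums (log2 fold change 1.26, SE 0.41, adjusted p = 0.0214). The COL6A1 difference passed at 0.0214 but missed the threshold under 5 of the alternatives, among them DESeq2 (adjusted p = 0.135) and the fit without subcutaneous 1 (0.492). The ratio of COL6A2 to COL6A3 UMIs was 16.2 (6.61 to 47.9), 11.3 (1.60 to 495) and 6.21 (4.23 to 9.18) times higher in adipocyte-like than in progenitor-like nuclei. For COL6A1 to COL6A3 it was 7.70 (2.99 to 23.6), 9.33 (0.994 to 465) and 6.02 (3.85 to 9.51) times higher. COL6A1 and COL6A2 are neighbours on chromosome 1 in the RefSeq table, whereas COL6A3 is on chromosome 3.

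The proteoglycans and COL14A1 marked progenitor-like nuclei. DCN was at 6202, 3907 and 3146 in progenitor-like nuclei, at 225, 153, 404 and 21.9 in adipocyte-like nuclei and at 450, 98.5 and 779 in blood endothelial-like nuclei. Its log2 fold change against adipocyte-like nuclei, 4.28 (SE 0.51, adjusted p = 2.2e-10), was the highest of the 10. LUM was at 919, 451 and 454 in progenitor-like nuclei and at 64.4, 19.1, 63.2 and 0 in adipocyte-like nuclei (log2 fold change 3.55, SE 0.45, adjusted p = 1.7e-09). DCN and LUM, also neighbours (chromosome 5), differed in proportion between these types beyond counting error in subcutaneous 1 alone: the LUM to DCN ratio in adipocyte-like nuclei was 1.93 (1.04 to 3.42), 1.08 (0.0237 to 8.52) and 1.08 (0.794 to 1.48) times that in progenitor-like nuclei. COL14A1 was at 620, 240 and 237 in progenitor-like, 75.1, 76.3, 33.7 and 142 in adipocyte-like and 168, 89.9 and 28.2 in blood endothelial-like nuclei. Its groups did not overlap, and its log2 fold changes were 2.62 (SE 0.41, adjusted p = 5.4e-07) and 1.91 (SE 0.39, adjusted p = 8.0e-05). In the gene table COL1A2 overlaps a long non-coding RNA and COL14A1 a small nuclear RNA, so some UMIs of these 2 genes could belong to the overlapping transcript.

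Droplets can also hold free RNA from broken cells, so the levels were set beside markers that adipocytes should lack. These markers also chose the nuclei. The gate itself therefore lowers their level in adipocyte-like nuclei, and that level is no measure of free RNA. No profile of empty droplets was used here, and the part of free RNA was not tested. The 14 progenitor markers measured stood in adipocyte-like nuclei at 4.41%, 6.48% and 9.80% of their progenitor-like level (subcutaneous 1 and 2 and intramuscular 1), with 10, 7 and 13 of them at a UMI or more. Intramuscular 2 had no progenitor-like sum to compare with, and its adipocyte-like nuclei held 1916 CPM of these markers (12 of 14 with a UMI), against 748, 629 and 729 in the other libraries, beside 2 UMIs of DCN. COL1A1 was near these values, at 5.02%, 6.32% and 12.5%, and so were DCN (3.63%, 3.91% and 12.8%) and COL6A3 (4.17%, 5.20% and 9.04%). COL3A1 was at 120%, 56.3% and 127%, COL5A2 at 133%, 86.9% and 135%, and COL6A2 at 68.1%, 59.8% and 56.3%. The COL3A1 to COL1A1 ratio was 23.9 (17.7 to 32.8), 8.89 (3.58 to 28.5) and 10.1 (8.57 to 11.9) times higher in adipocyte-like than in progenitor-like nuclei. In blood endothelial-like nuclei that ratio was 1.08 (0.851 to 1.37), 0.714 (0.326 to 1.66) and 1.93 (1.56 to 2.40) times the progenitor-like one.

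**Figure D3:**
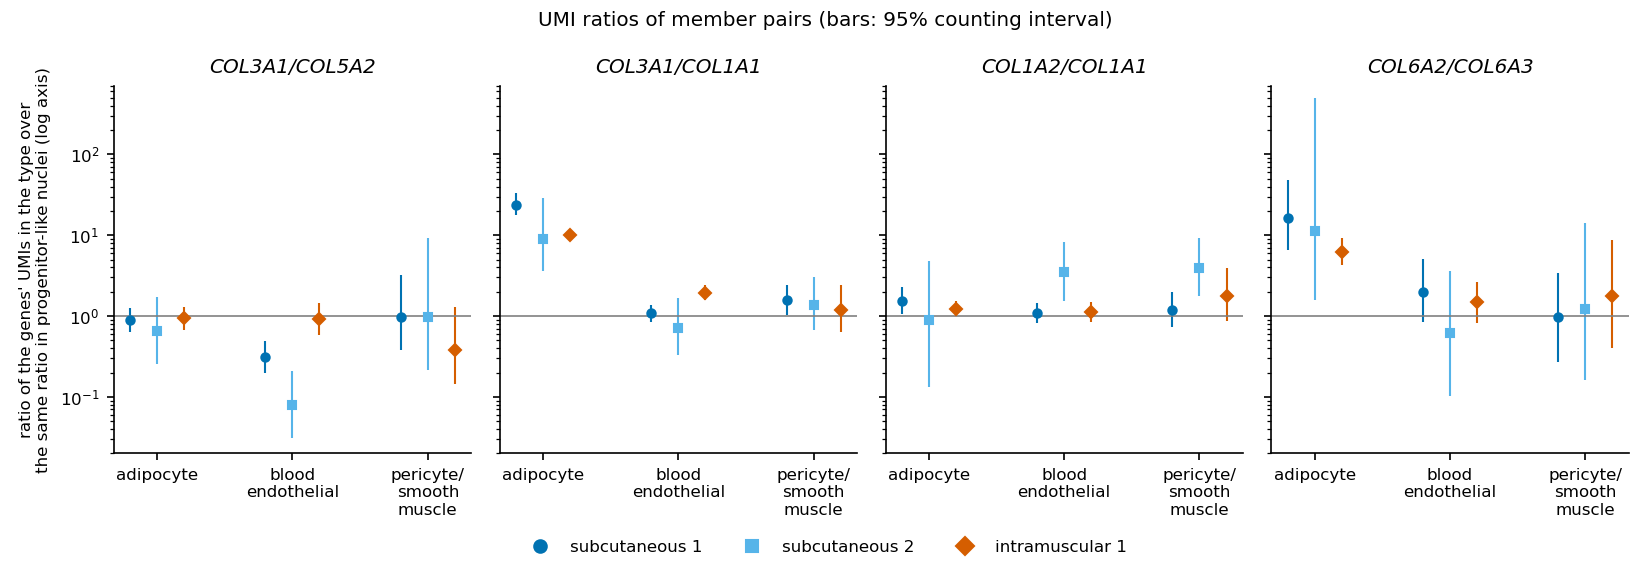
UMI ratio of 2 genes in adipocyte-like, blood endothelial-like and pericyte/smooth muscle-like nuclei divided by the same ratio in progenitor-like nuclei of the library (log axis, line at 1, exact 95% counting intervals). COL3A1/COL1A1 stands at 23.9, 8.89 and 10.1 and COL6A2/COL6A3 at 16.2, 11.3 and 6.21 in adipocyte-like nuclei, where the COL3A1/COL5A2 intervals include 1. In blood endothelial-like nuclei COL3A1/COL5A2 drops to 0.314 and 0.080 in subcutaneous 1 and 2.

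The adipocyte-like levels were then taken only from nuclei with no UMI of a progenitor marker and none of DCN, a choice made after the data were seen. There were 44, 28, 198 and 16 such nuclei. COL3A1 was at 11586, 1459, 7059 and 873 CPM in them, and COL1A1 at 170, 151, 167 and 87.3. The log2 fold change of progenitor-like over these nuclei was 0.43 for COL3A1 (SE 0.54, adjusted p = 0.672) and 3.82 for COL1A1 (SE 0.50, adjusted p = 1.8e-07). Nuclei with at least 500 UMIs were thinned to 500, and those with fewer were left out of the thinned shares. A COL3A1 UMI was then present in 97.1%, 51.4%, 95.4% and 40.0% of adipocyte-like nuclei. The shares were 28.2%, 6.21% and 59.4% in blood endothelial-like and 33.3%, 22.2% and 37.5% in macrophage-like nuclei. Without thinning, and over all nuclei of the type, the adipocyte-like shares were 99.3%, 56.3%, 99.5% and 63.6%. The blood endothelial-like shares were 51.6%, 9.36% and 82.4%. Median depth was 1644, 724.5, 1795.5 and 1064.5 UMIs in adipocyte-like and 1032, 770 and 996 in the blood endothelial-like nuclei of the first 3 libraries. For DCN the thinned adipocyte-like shares, 10.1%, 2.86%, 19.1% and 0%, were at or below the blood endothelial-like ones (12.7%, 4.35% and 29.5%) in the 3 libraries that have both, and no expression was read from them. The 0 of 40 thinned nuclei in intramuscular 2 has an exact upper bound of 8.81%.

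Adipocyte-like nuclei came from different expression clusters in different libraries. In subcutaneous 1, 98 lay in cluster 0 and 24 in cluster 13, and COL3A1 was at 11253 and 13227 CPM in them. In intramuscular 1, 590 lay in cluster 13, with COL3A1 at 7041, and in intramuscular 2 all 44 lay in cluster 0, at 1565. Of the progenitor-like nuclei, 205 lay in the cluster named from progenitor markers and 249 in cluster 12, which had 551 nuclei of intramuscular 1 and 11 of subcutaneous 1 and got no name because only 2 markers were among its top 100 genes. Markers of other types in adipocyte-like nuclei had a median of 0% of UMIs for the blood endothelial, pericyte/smooth muscle, macrophage and muscle fibre lists and 0.0301% for the progenitor list, against 1.22% for their own. These medians pool the libraries: in the sums, muscle fibre markers stood at 9623, 79027, 14.04 and 76.6 CPM, above the 9557 CPM of the adipocyte list in subcutaneous 2, and their part in the adipocyte-like levels was not tested. Adipocyte markers stood at 1169, 141 and 2733 CPM in progenitor-like sums (subcutaneous 1 and 2, intramuscular 1). In adipocyte-like sums of the same libraries they stood at 10943, 9557 and 12618. They had a UMI in 56.6% of progenitor-like nuclei, and their part in the progenitor-like levels was not tested. The progenitor-like class is a range of a score: 43 nuclei inside it and 36 outside it lay near the cut (likelihood ratio 10 to 40, cut at 20). Without the 4 matrix genes among its markers (FBN1, MFAP5, LAMA2 and TNXB), 191 nuclei were progenitor-like. The full list gave 479, and 161 were in both. Members called higher were 10 of 10 against blood endothelial-like and 7 of 10 against adipocyte-like nuclei, as with the full list. Of all 4106 genes tested under this gate, 294 and 307 were called higher.

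Pericytes and smooth muscle cells wrap vessels and make matrix of their own. In pericyte/smooth muscle-like nuclei COL6A1 and COL5A2 rested on few UMIs, and neither was called against progenitor-like nuclei. COL6A1 was at 156, 165 and 209 there, from 7, 9 and 5 UMIs, against 452, 226 and 221 in progenitor-like nuclei (log2 fold change 0.69, SE 0.49, 95% interval -0.29 to 1.67, adjusted p = 0.477). COL5A2 was at 111, 36.6 and 209 (1.27, SE 0.54, 95% interval 0.20 to 2.33, adjusted p = 0.158), from 5, 2 and 5 UMIs. COL1A2, at 913, 531 and 1002, had the smallest difference that passed (1.28, SE 0.42, adjusted p = 0.0406), and DCN, at 735, 128 and 1002, the largest (3.27, SE 0.50, adjusted p = 4.4e-07). COL1A2 missed the threshold under 4 alternatives, among them DESeq2's size factors within edgeR (adjusted p = 0.0552) and the fit without subcutaneous 1 (0.376), and COL6A2 missed it without subcutaneous 2 (0.0919). In the pericyte/smooth muscle-like nuclei muscle fibre markers took a median of 6.88% of UMIs and were present in 86.8% of nuclei, and their part in these levels was not tested.

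Each of the 10 was also higher in progenitor-like than in macrophage-like and muscle fibre-like nuclei. In macrophage-like nuclei COL5A2, COL6A1, COL6A2, COL6A3, COL14A1 and LUM each had 0 UMIs in at least 1 of 3 libraries. DCN, with 19, 1 and 6 UMIs, was at 878, 75.0 and 348 CPM (log2 fold change of progenitor-like over macrophage-like 3.98, SE 0.54, adjusted p = 2.7e-08). Here the median log2 fold change of all genes was 0.44, or 0.11 with DESeq2 size factors in place of TMM scaling, so part of each value is shared by all genes; the median of the 10 was 4.05 and 3.79. In muscle fibre-like nuclei, which occur only in the libraries labelled subcutaneous, COL3A1 was at 731 and 139 and DCN at 334 and 147 CPM (log2 fold changes 2.64, SE 0.58, adjusted p = 9.5e-05, and 2.60, SE 0.53, adjusted p = 3.1e-05). Summed over the 10 genes, the share of UMIs was 2.64%, 1.33% and 1.40% in progenitor-like, 1.31%, 0.378%, 0.863% and 0.351% in adipocyte-like, 0.316%, 0.0574% and 0.444% in blood endothelial-like, 0.296%, 0.0525% and 0.353% in macrophage-like and 0.167% and 0.0486% in muscle fibre-like nuclei.

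Library was a term in these fits, since a library's types share depth and free RNA. In blood endothelial-like nuclei each of the 10 but COL14A1 was lowest in subcutaneous 2, where COL3A1 stood at 107 against 1184 and 2386 in the other libraries. With the library term left out, members called higher fell to 6 of 10 against adipocyte-like, blood endothelial-like and macrophage-like nuclei. They fell to 7 against muscle fibre-like and 1 against pericyte/smooth muscle-like nuclei. Genes called higher among all 5424 fell too. Their counts went from 455 to 238, 415 to 170, 287 to 90, 989 to 748 and 204 to 52, in that order. COL3A1 was then no longer called against blood endothelial-like nuclei (log2 fold change 2.29, adjusted p = 0.322).

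Within a type a large share of a gene's UMIs sat in few nuclei, ranked by raw UMIs of that gene. The part of nucleus depth and of low counts in these shares was not tested. The 12, 10 and 27 progenitor-like nuclei with the most UMIs of a gene, of 120, 96 and 262, held 50.6%, 64.5% and 52.3% of COL1A1 UMIs, 48.6%, 51.6% and 45.2% of DCN UMIs and 43.0%, 58.1% and 46.2% of COL3A1 UMIs. In adipocyte-like nuclei COL3A1 was spread more evenly in the deeper libraries, with 34.1% and 29.9% in the top 15 of 146 and 66 of 658 nuclei of subcutaneous 1 and intramuscular 1, against 57.0% and 51.0% in the top 5 of 48 and 5 of 44 in subcutaneous 2 and intramuscular 2. A progenitor-like nucleus had a median of 5, 3 and 4 of the 10 genes with a UMI, and 0.833%, 3.13% and 1.15% had none. An adipocyte-like nucleus had a median of 3, 1, 3 and 2, and a blood endothelial-like nucleus 2, 0 and 3.

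Across the 18 sums, which share libraries and depth, COL6A3 followed the mean of the other 9 members most closely (Pearson r = 0.90 on log2 CPM + 1) and LUM least (0.60). These are descriptions without a test. Outside the members and the marker lists, the 8 genes most like the members' mean were C1S (r = 0.95), TRIO (0.86), C1R (0.86), ECM2 (0.85), NID1 (0.84), ZCCHC7 (0.83), FN1 (0.83) and GFPT2 (0.83). C1S and C1R encode the proteases of the first complement component, FN1 fibronectin, NID1 the basement membrane protein nidogen, and GFPT2 an enzyme of hexosamine synthesis. Medians of C1S were 429 CPM in progenitor-like, 68.4 in adipocyte-like and 83.8 in blood endothelial-like sums. GFPT2 had medians of 1358, 67.4 and 55.9.

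The members were read beside 6 lists of related genes. Genes that served as cell type markers are left out of the counts, since they chose the nuclei. Of 10 other fibril and fibril-associated collagens 5 were tested. Against blood endothelial-like nuclei 5 of 5 were higher in progenitor-like nuclei (median log2 fold change 2.22, against -0.02 over all genes), but against adipocyte-like nuclei 2 were higher and 1 lower (median -0.35, against -0.00 over all genes). The lower one was COL5A3, the third type V chain: it stood at 968, 367 and 612 CPM in progenitor-like and at 6976, 4406, 4283 and 10935 in adipocyte-like nuclei (log2 fold change -3.15, SE 0.49, adjusted p = 3.1e-07). All 4 adipocyte-like sums lay above all 3 progenitor-like sums, and intramuscular 2 was the highest. COL5A1, the partner chain of COL5A2, was at 1692, 635 and 746 in progenitor-like and at 1756, 1259, 832 and 2058 in adipocyte-like nuclei (log2 fold change -0.35, SE 0.39, adjusted p = 0.622), and 2.28 (SE 0.42, adjusted p = 1.3e-05) against blood endothelial-like nuclei. COL12A1, a fibril-associated relative of COL14A1, and COL6A6, a further type VI chain, were higher in progenitor-like than in adipocyte-like nuclei (2.37, SE 0.60, adjusted p = 0.0016, and 3.31, SE 0.73, adjusted p = 2.6e-04), on 28 and 23 UMIs at most in a progenitor-like sum. COL5A3 was chosen for its value, outside the naming rule.

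**Figure D4:**
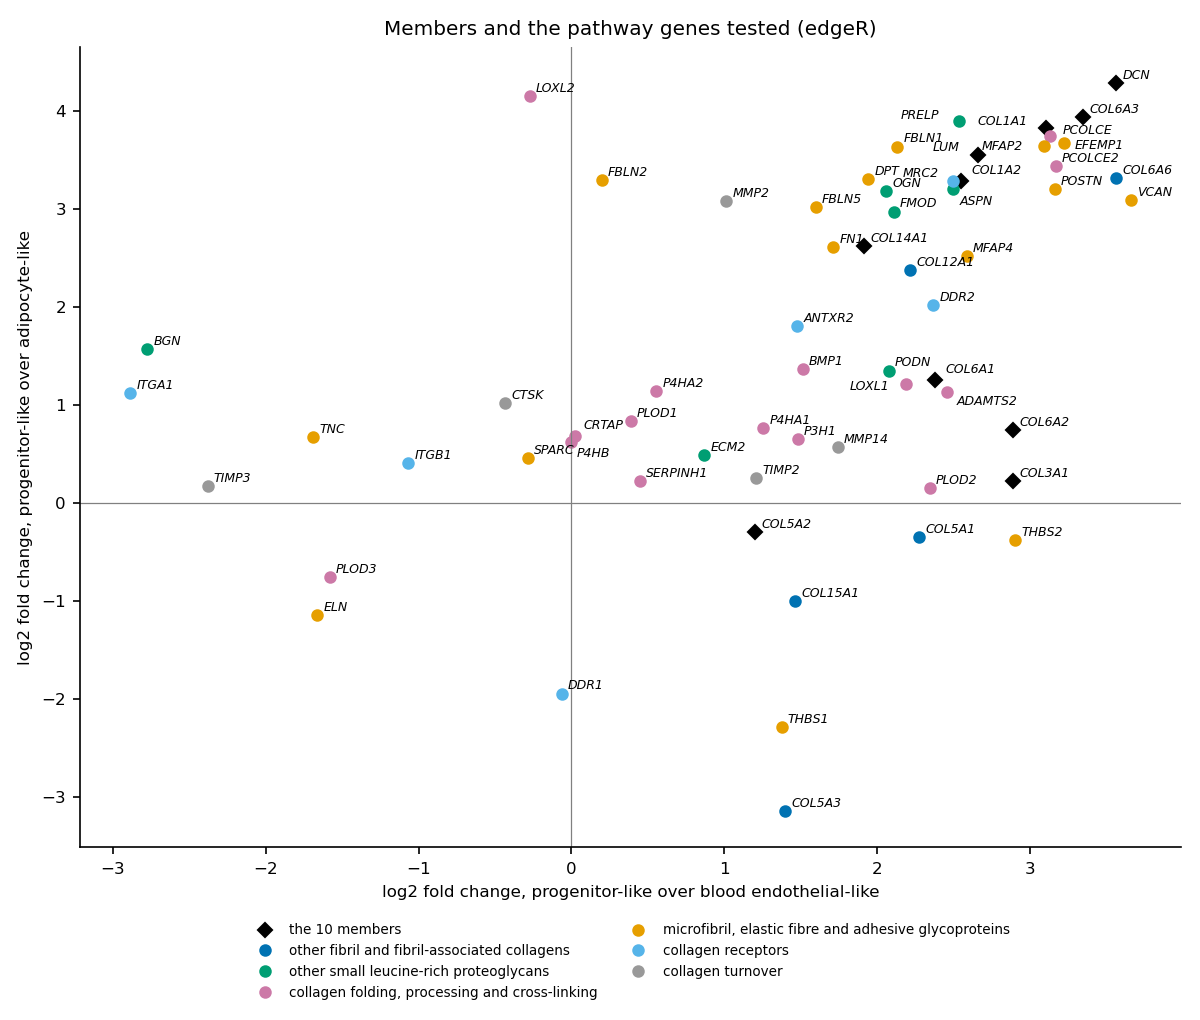
Log2 fold changes of progenitor-like over blood endothelial-like (x axis) and over adipocyte-like nuclei (y axis) for the 10 members (black diamonds) and the tested genes of 6 related lists (circles, markers left out); both axes share the progenitor-like sums. COL5A3 is lowest on the y axis at -3.15, and COL3A1, COL5A2 and COL5A1 lie near 0 on it, away from COL1A1, COL6A3 and DCN.

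Of 8 other small leucine-rich proteoglycans 7 were tested. Against adipocyte-like nuclei 5 were higher in progenitor-like nuclei and none lower (median log2 fold change 2.97), and against blood endothelial-like nuclei 5 were higher and 1 lower (median 2.08). Against pericyte/smooth muscle-like nuclei none was higher and 1 was lower (median 0.25). ASPN (asporin) and OGN (osteoglycin) were higher than in blood endothelial-like nuclei by 2.50 (SE 0.45, adjusted p = 7.7e-06) and 2.06 (SE 0.41, adjusted p = 5.2e-05). BGN (biglycan), the closest relative of decorin, went the other way. It was at 48.7, 56.4 and 16.7 CPM in progenitor-like nuclei, 402, 154 and 138 in blood endothelial-like and 512, 256 and 501 in pericyte/smooth muscle-like nuclei (log2 fold changes -2.78, SE 0.48, adjusted p = 4.0e-06, and -3.51, SE 0.53, adjusted p = 4.5e-07).

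Of 17 genes for collagen folding, processing and cross-linking 15 were tested. Against blood endothelial-like nuclei 7 were higher in progenitor-like nuclei and 1 lower (median log2 fold change 1.25), and against adipocyte-like nuclei 5 were higher and none lower (median 0.84). PCOLCE and PCOLCE2, enhancers of the protease that trims procollagen, were higher by 3.13 (SE 0.45, adjusted p = 3.8e-08) and 3.17 (SE 0.46, adjusted p = 4.9e-08) than in blood endothelial-like nuclei, and by 3.75 and 3.44 than in adipocyte-like nuclei (SE 0.48 for both, adjusted p = 2.2e-09 and 2.6e-08). PLOD2, a lysyl hydroxylase that prepares cross-links, was at 404, 240 and 112 CPM in progenitor-like and at 218, 114, 224 and 306 in adipocyte-like nuclei. It was higher than in blood endothelial-like nuclei (2.35, SE 0.44, adjusted p = 2.1e-05) and had a log2 fold change of 0.15 (SE 0.41, adjusted p = 0.860) against adipocyte-like nuclei.

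Of the 16 microfibril, elastic fibre and adhesive glycoproteins that were no markers 15 were tested, with 10 higher and 1 lower in progenitor-like nuclei against both adipocyte-like (median log2 fold change 3.02) and blood endothelial-like nuclei (median 1.94). The naming rule gave VCAN (versican) with the markers MFAP5 and TNXB, which chose the nuclei and are no result. VCAN was at 1135, 578 and 1229 in progenitor-like and at 136, 76.3, 133 and 131 CPM in adipocyte-like nuclei (log2 fold change 3.09, SE 0.42, adjusted p = 1.0e-08). The 1 lower gene was THBS1 (thrombospondin 1) against adipocyte-like nuclei (-2.29, SE 0.48, adjusted p = 1.3e-04) and ELN (elastin) against blood endothelial-like nuclei (-1.67, SE 0.46, adjusted p = 0.0047), both named after their values were seen.

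Of 10 collagen receptors 6 were tested, with 3 higher and 1 lower in progenitor-like than in adipocyte-like nuclei (median log2 fold change 1.46) and 3 higher and 2 lower than in blood endothelial-like nuclei (median 0.71). MRC2, which takes up collagen fragments, and DDR2, a receptor kinase for fibrillar collagen, were higher than in blood endothelial-like nuclei by 2.50 (SE 0.41, adjusted p = 7.7e-07) and 2.37 (SE 0.45, adjusted p = 2.6e-05). ITGA1, an integrin chain, was lower (-2.89, SE 0.55, adjusted p = 2.2e-05). The receptor lower than in adipocyte-like nuclei was DDR1, the other discoidin domain kinase (-1.95, SE 0.45, adjusted p = 5.7e-04), named after its value was seen. Of 9 turnover genes that were no markers 5 were tested, with 1 higher than in adipocyte-like nuclei (median 0.57) and 3 higher and 1 lower than in blood endothelial-like nuclei (median 1.01). TIMP3, an inhibitor of metalloproteinases, was lower than in blood endothelial-like nuclei (-2.38, SE 0.42, adjusted p = 4.2e-06). MMP14 and TIMP2 were higher (1.74, SE 0.42, adjusted p = 0.0011, and 1.21, SE 0.39, adjusted p = 0.0193).

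Between depots none of the 10 genes passed the test. Depot directions follow the labels; the muscle fibre markers go against these, and an exchange of labels, which was not tested, would turn every sign. In whole libraries 0 of 10 were called, where 1.53% of 11143 genes were, in progenitor-like nuclei 0 of 10 (3.45% of 4554 genes) and in adipocyte-like nuclei 0 of 9 (0.643% of 4509 genes, COL6A3 having too few UMIs). At an unadjusted p under 0.05 there were also none among the members in these fits, against 1192, 403 and 141 genes in all, and DESeq2 called 0 members in each of them. In bulk sums of a library, fewer nuclei of a type and less RNA per nucleus cannot be told apart.

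In whole libraries COL3A1 was at 5130, 332, 5824 and 1650 CPM (log2 fold change of intramuscular over subcutaneous 0.29, SE 1.95, 95% interval -3.92 to 4.49, adjusted p = 0.979). COL1A1 was at 793, 97.1, 467 and 237 (-0.61, SE 1.15, 95% interval -3.09 to 1.87, adjusted p = 0.904). Subcutaneous 2, where muscle fibre-like nuclei were 67.6% of all, was the lowest for both. DCN was at 1205, 240, 906 and 19.0 and LUM at 249, 30.2, 132 and 0, with intramuscular 2 the lowest (-0.93, SE 1.51, adjusted p = 0.879, and -1.10, SE 1.13, adjusted p = 0.786). Intramuscular 2 had 2 DCN UMIs and 0 LUM UMIs, which allows LUM up to 28.4 CPM, and 1 progenitor-like nucleus. COL6A2 was at 219, 37.7, 254 and 787, with both intramuscular libraries above both subcutaneous ones, and had the largest fold (1.55, SE 1.07, 95% interval -0.76 to 3.86, adjusted p = 0.649). The part of muscle fibre-like nuclei and of makeup in these values was not tested beyond leaving them out, which left 0 of 10 called.

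**Figure D5:**
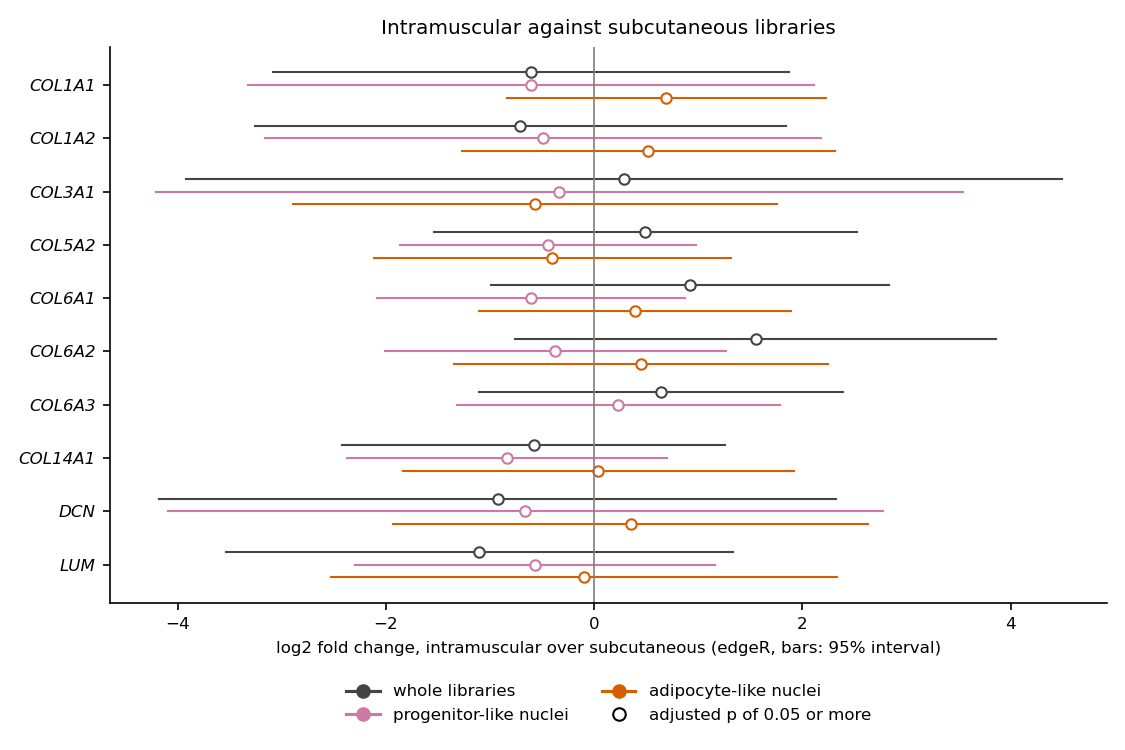
Log2 fold changes (x axis) of intramuscular over subcutaneous libraries for the 10 genes in whole libraries, progenitor-like and adipocyte-like nuclei, with 95% intervals from edgeR. Every interval spans 0, and those of COL3A1 are the widest in whole libraries (-3.92 to 4.49).

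Within progenitor-like nuclei 2 subcutaneous libraries were set against 1 intramuscular library, whose spread was taken from the former. Of the 10 genes 9 had a negative value, COL6A3 being the exception (0.23, SE 0.79), and the median was -0.53, against -0.08 over all genes. COL14A1 had the lowest value, -0.84 (SE 0.78, 95% interval -2.37 to 0.70, adjusted p = 0.999), from 620 and 240 against 237 CPM. For COL1A1, COL1A2, COL3A1, COL5A2, COL6A3 and LUM the intramuscular level lay between the 2 subcutaneous levels, and for COL6A1, COL6A2, COL14A1 and DCN below both. Muscle fibre markers took 13971 and 98767 CPM of the subcutaneous progenitor-like sums and 62.5 of the intramuscular one, and their part was not tested.

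Among adipocyte-like nuclei the members' folds ranged from -0.57 (COL3A1, SE 1.05, 95% interval -2.89 to 1.76) to 0.70 (COL1A1, SE 0.69, 95% interval -0.84 to 2.23), each with an adjusted p of 0.999. The COL3A1 levels, 11290 and 2709 against 6988 and 1565, were lower in animal 2 than in animal 1 in both depots. DCN was at 225 and 153 against 404 and 21.9. It was the single member to be called in any alternative, with a log2 fold change of -3.24 (SE 0.94, adjusted p = 0.0351) with intramuscular 1 left out, where the comparison rests on the 2 DCN UMIs of intramuscular 2. With the animal as a block no member was called in whole libraries or in adipocyte-like nuclei, where 199 of 11143 and 53 of 4509 genes were. The precision is that of 2 libraries per depot. On simulated data 8-fold changes were recovered for 96.5%, 96% and 93.5% of changed genes in whole libraries, progenitor-like and adipocyte-like nuclei. For 4-fold changes the shares were 60%, 48% and 36%. The simulation gave every gene the same dispersion and changed only genes with many UMIs, so these shares do not carry over to the members. In the whole-library fit COL3A1 had an SE of 1.95 and DCN of 1.51.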

How the data were processed

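Single-nucleus RNA libraries from 2 steers and 2 fat depots were used as UMI counts per gene and barcode, which the authors made with Cell Ranger 6.0.1 (per the file headers) on build ARS-UCD1.2 (per the submitters' processing notes). Neither label nor header states the annotation release or whether intronic reads were counted. The deposited counts hold 4251 genes without a symbol.

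Nuclei with at least 200 genes and at most 10% mitochondrial UMIs were kept. Types were gated on marker lists by a likelihood ratio of at least 20 with at least 2 markers, fibre-like nuclei by 20% fibre-marker UMIs, and doublets were kept, with no caller run and 83 nuclei that fitted several types left out. Clusters (scanpy 1.11.5, igraph 0.11.9) served as a check. UMIs were summed per library and type and tested with edgeR 4.0.16 (R 4.3.3) quasi-likelihood fits, TMM scaling, a filter on low genes and Benjamini-Hochberg adjustment over all genes tested, with DESeq2 1.42.0 as an alternative. Library was a term in the comparison of types, and none in that of depots. Levels have exact Poisson and shares exact Clopper-Pearson 95% intervals, which cover counting error only; the limit for 0 UMIs is 3 UMIs. Kept libraries held 105481 to 4006966 UMIs.

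The number in a label names the animal, which pairs the libraries; deviations of the same animal's libraries from their depot means correlated at r = -0.0892 over 11143 genes. Other settings tried were RLE size factors, no gene filter, the animal as a block or no library term, a minimum of 500 genes, gates without 4 matrix markers, types from clusters and each library left out. A pair of alternatives was added after the data were seen: adipocyte-like nuclei without progenitor-marker or DCN UMIs, and whole libraries without muscle-like and unassigned nuclei. The fits were tested on simulated data. Beside the members, the text names the 3 genes of each related list with the smallest p against blood endothelial-like nuclei and the 8 genes most correlated with the members' mean. The members and lists were chosen with earlier results of these data known.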

Additional observations from a re-analysis of the deposited data

How the results depend on the processing

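Of 559 comparisons of a member between nucleus types under another setting, 1 changed sign: COL3A1 against adipocyte-like nuclei ranged from -0.31 to 0.35 with a library left out. Without the library term (no replicate block), 430 genes were called against adipocyte-like, 401 against blood endothelial-like, 178 against macrophage-like and 146 against pericyte/smooth muscle-like nuclei, and members called were 6 against blood endothelial-like, 6 against macrophage-like and 1 against pericyte/smooth muscle-like nuclei. Genes called were 598 with adipocyte-like nuclei lacking progenitor markers and DCN, 631 against blood endothelial-like nuclei with the gate without matrix markers, and 193 against macrophage-like nuclei with at least 500 genes. With a library left out they ranged from 379 to 1113 (adipocyte), 461 to 1085 (blood endothelial), 157 to 454 (macrophage), 1446 to 2630 (muscle fibre) and 168 to 442 (pericyte/smooth muscle). Between depots, genes called in whole libraries were 348 with DESeq2, 444 with no gene filter, 0 without muscle fibre-like and satellite-like nuclei (898 at an unadjusted p under 0.05, edgeR), 0 with gated non-muscle nuclei only (696) and 24 to 411 with a library left out. In progenitor-like nuclei they were 47 with DESeq2, 81 with the gate without matrix markers and 0 with no gene filter (334 at an unadjusted p under 0.05, edgeR). In adipocyte-like nuclei they were 50 with DESeq2, 50 with types from clusters, 12 with nuclei lacking progenitor markers and DCN, 103 with no gene filter, 53 with the replicate block, and 26 to 230 with a library left out, with 0 to 1 members called. The replicate block (animal) changed no call on a member. The signs of uncalled depot values in adipocyte-like nuclei moved: COL14A1 went to -0.18 (gate without matrix markers), -0.00624 (at least 500 genes) and -0.27 (replicate block), DCN to -0.24 and -0.33 (the first and last of these), LUM to 0.067 (at least 500 genes) and COL6A2 to -0.88 (nuclei lacking progenitor markers and DCN). With a library left out the ranges there were -0.98 to 0.78 for COL14A1, -0.097 to 2.11 for COL1A2, -2.27 to 0.70 for COL3A1, -0.95 to 0.40 for COL5A2, -0.38 to 0.91 for COL6A2, -3.24 to 1.23 for DCN and -0.47 to 0.46 for LUM. In progenitor-like nuclei they were -1.15 to 0.59 for COL1A2 and -0.72 to 0.067 for COL3A1. In whole libraries they were -1.11 to 0.38 for COL14A1, -1.33 to 0.68 for COL1A1, -1.36 to 0.55 for COL1A2, -1.07 to 2.33 for COL3A1, -0.23 to 2.08 for COL5A2, -5.75 to 0.13 for DCN and -10.3 to 0.21 for LUM. The cause was not tested. Types from clusters left progenitor-like nuclei no intramuscular library, so that depot comparison was not run, and there the block and each subcutaneous library left out leave no residual degrees of freedom and give values without a test. Intramuscular 2, with 63 nuclei, limits every depot comparison, and macrophage-like sums of 12 to 22 nuclei limit theirs.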

Other observations

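Nuclei that met no gate, 2324 in all, also held the members. COL3A1 was at 3105, 411, 5723 and 2456 CPM in them (subcutaneous 1 and 2, intramuscular 1 and 2), and DCN at 861, 254, 1261 and 0. The 83 nuclei that fitted several types had COL3A1 at 5239, 936, 4726 and 2052. These nuclei entered no comparison of types.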
